A study of Mus musculus with 4 samples.

Results

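Junction genes of the blood-testis barrier were followed in RNA-sequencing profiles of mouse spermatocyte suspensions. The 9 members, Cldn11, Cldn3, Cldn5, Ocln, F11r, Tjp1, Gja1, Cdh2 and Cadm1, were taken by symbol from a table of 24388 gene symbols, for their known place in tight, gap and adherens junctions between Sertoli cells or between Sertoli and germ cells. All 9 were found, with 1 row each. The series holds 2 libraries of Np95 knockout spermatocytes and 2 libraries of control spermatocytes, all of strain C57BL/6 and all with an age label of 21 dpc, an abbreviation that the labels do not spell out. The protein Np95 is the product of Uhrf1, which recognises CpG sites methylated on one strand and brings in the maintenance methyltransferase. The deposited column names mark the knockout as cKO, and the labels used here name neither the promoter that drives the deletion nor the deleted exons. Accutase-digested tubules were filtered through a 95 µm mesh, with no sorting step described, so other cells of the testis can be present. The labels do not tie replicates to separate mice. The p-values therefore rest on library-to-library spread that may be technical only.

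The blood-testis barrier lies between neighbouring Sertoli cells near the base of the seminiferous tubule and divides spermatogonia and early spermatocytes from later meiotic cells. It combines tight junctions, gap junctions, adhesion complexes and the actin-based ectoplasmic specialization. Claudins seal the space between cells, occludin and JAM proteins sit beside them in the membrane, and ZO proteins tie them to actin. Preleptotene and leptotene spermatocytes pass the barrier while it is rebuilt behind them.

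Expression is in RPKM, which scales reads to gene length and to library size. The steps between low values show that the authors divided by the whole gene span, introns included, so long genes have low RPKM although many reads stand behind them. The step sizes put depth near 11110000 and 4815000 reads or pairs in knockout replicates 1 and 2, and near 5820000 and 12800000 in control replicates 1 and 2. The depth of knockout replicate 2 and control replicate 1 is the less certain, as their values also allow a step of 1 read or pair that is smaller, which would make their reads about 2 times those given here. Uhrf1 itself had 1.87 and 1.48 RPKM in the knockout libraries, against 3.11 and 3.29 RPKM in the control libraries. The RPKM covers the whole gene, so the value does not measure the deleted part. The pachytene enzyme gene Pgk2 had 24.9 and 15.3 RPKM in the knockout libraries, against 132 and 139 RPKM in the control libraries, so spermatocyte RNA was present in each library. Genes with at least 0.1 RPKM in 2 or more libraries were tested, 14887 in all. Fold changes on the log2(RPKM + 0.1) scale and adjusted p-values are from limma, with a call at an adjusted p under 0.05, while folds without a log divide the mean RPKM of the knockout libraries by that of the control libraries, or the reverse where a gene is called lower. The median log2 fold change of all tested genes was 0.38, so member changes are also given after subtraction of it.

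Of the 9 members, 7 rose in the knockout, none fell, and Cldn5 and Cdh2 were not called. Across all tested genes 70.2% were called, 47.0% higher and 23.2% lower, and the 2 groups did not overlap for 88.1%. Higher calls made up 66.9% of all calls, and 81.6% with an equal RPKM sum, 43.4% with an equal median and 50.5% with quantile normalization. The 2 groups did not overlap for the 7 members that rose and overlapped for Cldn5 and Cdh2. The median log2 fold change of the members was 1.03, or 0.65 beyond the median of all tested genes. One of the 7, Ocln, passed the filter through the knockout libraries alone, so its groups had to differ.

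**Figure D1:**
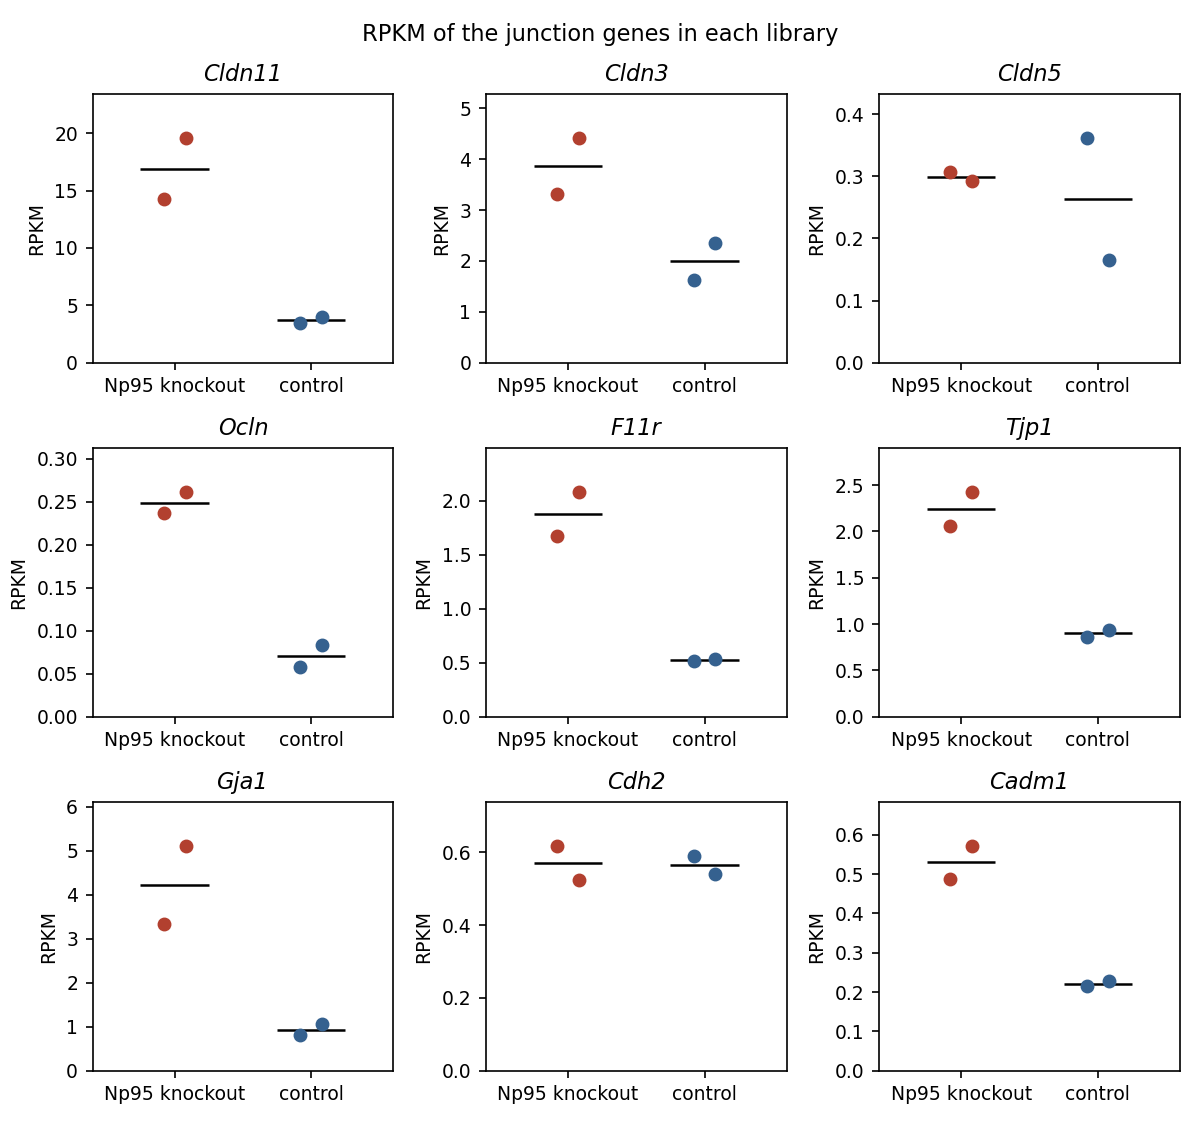
RPKM of each junction gene in the 2 Np95 knockout libraries (left, red) and the 2 control libraries (right, blue), each axis starting at 0, with points for libraries and lines for group means. For Cldn11 the knockout libraries had 14.3 and 19.6 RPKM and the control libraries 3.50 and 3.94 RPKM, while for Cdh2 the groups overlapped.

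Among the transmembrane tight junction genes, Cldn11 moved most. It encodes claudin-11, the claudin of mature Sertoli cells, without which tight junction strands between mouse Sertoli cells are missing and spermatogenesis stops. Cldn11 had 14.3 and 19.6 RPKM in knockout replicates 1 and 2, against 3.50 and 3.94 RPKM in control replicates 1 and 2. Both knockout libraries lay above both control libraries. The means were 16.9 ± 3.72 RPKM in the knockout and 3.72 ± 0.317 RPKM in the control (SD, n = 2 each), a 4.55-fold difference and a log2 change of 2.14 (SE 0.18, adjusted p = 0.0031 by limma).

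F11r encodes JAM-A, an immunoglobulin-like protein of tight junctions. F11r had 1.67 and 2.08 RPKM in the knockout libraries, against 0.519 and 0.537 RPKM in the control libraries, 3.55-fold higher. Its log2 fold change was 1.64 (SE 0.15, limma adjusted p = 0.0031), and the 2 groups were well apart, with the control libraries close to each other. Ocln, the gene of occludin, had 0.236 and 0.261 RPKM in the knockout libraries, against 0.0577 and 0.0836 RPKM in the control libraries. It was 3.52-fold higher, with a log2 change of 1.03 (SE 0.16, adjusted p = 0.0056 by limma), a scale on which such low values are understated. Without the filter its limma adjusted p was 0.027.

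The 2 other claudin members gave smaller or unresolved differences. Cldn3 encodes a claudin that is known in mice from the newly formed tight junctions around migrating early spermatocytes. Cldn3 had 3.31 and 4.41 RPKM in the knockout libraries, against 1.63 and 2.35 RPKM in the control libraries, 1.94-fold higher. The groups did not overlap, but the gap between the lower knockout library and the higher control library was narrow. Its log2 fold change was 0.93 (SE 0.23, limma adjusted p = 0.021), and the call ended without control replicate 1 (adjusted p = 0.076) and without knockout replicate 2 (adjusted p = 0.11). It ended also with libraries centred on an equal median (adjusted p = 0.12), with quantile normalization (adjusted p = 0.057) and without the filter (adjusted p = 0.098).

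Cldn5, best known from endothelial barriers, had 0.307 and 0.293 RPKM in the knockout libraries, against 0.361 and 0.165 RPKM in the control libraries. Both knockout values lay inside the range of the control values. The gene span is 1416 bases, so these values correspond to about 4.83 and 1.99 reads or pairs in the knockout libraries and 2.98 and 2.99 in the control libraries, and no difference was detectable at this depth. For knockout replicate 2 and control replicate 1 the reads could be about 2 times as many. Its log2 fold change was 0.19 with a 95% interval from -0.60 to 0.99 (limma adjusted p = 0.59). The summed RPKM of 16 endothelial markers was 6.14 and 5.05 in the knockout libraries, against 3.34 and 4.16 in the control libraries, and 6 of the 8 tested rose. Their part in the Cldn5 values was not tested.

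Tjp1 encodes ZO-1, the scaffold beneath tight junctions, which many epithelia express. Tjp1 had 2.06 and 2.42 RPKM in the knockout libraries, against 0.862 and 0.939 RPKM in the control libraries. The groups did not overlap, and the 2.49-fold difference gave a log2 change of 1.22 (SE 0.13, adjusted p = 0.0032 by limma). Because the gene spans 231686 bases, these low values stand for about 5298 and 2700 reads or pairs in the knockout libraries and 1163 and 2783 in the control libraries.

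The gap junction gene Gja1 encodes connexin 43, the main connexin of Sertoli cells and of their contacts with germ cells. Gja1 had 3.34 and 5.10 RPKM in the knockout libraries, against 0.805 and 1.05 RPKM in the control libraries. The knockout libraries differed from each other more than the control libraries did, yet both lay well above the control. The means were 4.22 ± 1.25 RPKM in the knockout and 0.929 ± 0.176 RPKM in the control (SD, n = 2 each), 4.54-fold higher with a log2 change of 2.05 (SE 0.25, adjusted p = 0.0036 by limma).

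The 2 adhesion genes behaved differently from each other. Cadm1 encodes an immunoglobulin-like adhesion molecule that is known in the mouse testis from germ cells, which it joins to Sertoli cells. Cadm1 had 0.489 and 0.571 RPKM in the knockout libraries, against 0.214 and 0.229 RPKM in the control libraries, 2.39-fold higher. Its groups were well apart, with a log2 change of 0.97 (SE 0.15, adjusted p = 0.0053 by limma), and the call ended with quantile normalization (adjusted p = 0.064). The long noncoding RNA gene Gm10677 overlaps the annotated Cadm1 gene and had 1.17 and 1.36 RPKM in the knockout libraries, against 0.545 and 0.649 RPKM in the control libraries. The named library kit is not a strand-marking one, and reads of these 2 genes cannot be told apart where they overlap.

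Cdh2 encodes N-cadherin, the classical cadherin of the seminiferous epithelium, present in Sertoli cells and germ cells. Cdh2 had 0.617 and 0.525 RPKM in the knockout libraries, against 0.590 and 0.542 RPKM in the control libraries, so the control values lay between the knockout values. The log2 fold change was 0.01, with a 95% interval from -0.37 to 0.39 (limma adjusted p = 0.96). About 557 to 1510 reads or pairs per knockout library and 756 to 1528 per control library stand behind these values. Relative to the median of all genes the difference was -0.37, and with quantile normalization Cdh2 was called lower (log2 fold change -0.55, limma adjusted p = 0.029).

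**Figure D2:**
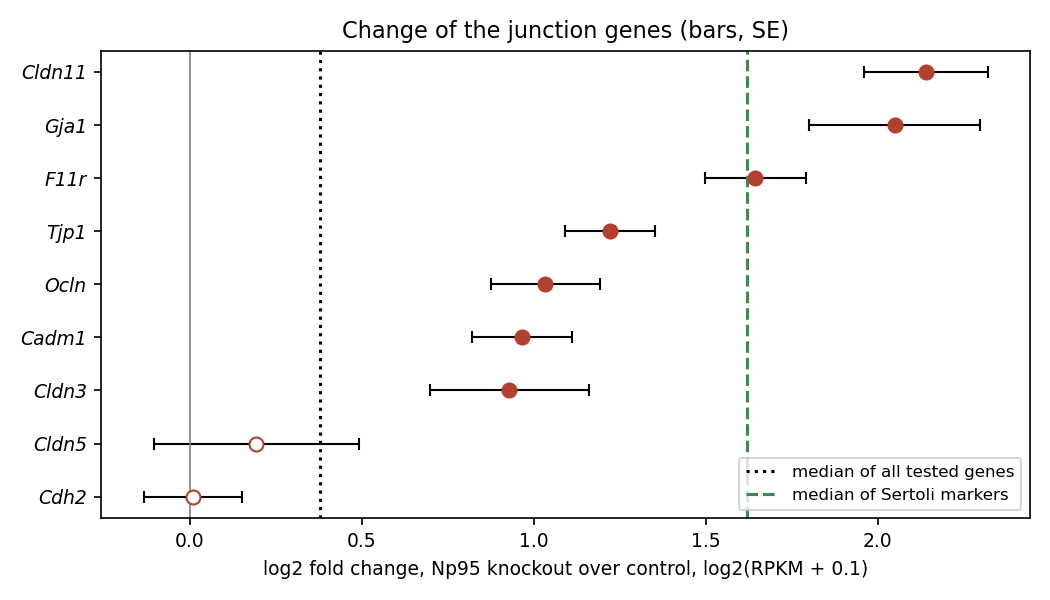
Log2 fold change of each junction gene, Np95 knockout over control, on the log2(RPKM + 0.1) scale, with bars for the SE, filled points for genes called higher and open points for genes not called. Cldn11, Gja1 and F11r lay at or to the right of the median of the Sertoli markers, 1.62, and Cldn5 and Cdh2 lay to the left of the median of all tested genes, 0.38.

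Levels of different members can be compared only per transcribed length, so RPKM was multiplied by gene span over exon length. The exon lengths come from GENCODE M21 on GRCm38, which may differ from the annotation the authors used, and reads in introns inflate the result for long genes. On this exon scale the knockout order was Cldn11 at 130 ± 28.6, Tjp1 at 66.4 ± 7.61, F11r at 19.0 ± 2.89, Cadm1 at 16.8 ± 1.84 and Cdh2 at 15.6 ± 1.77 (mean ± SD, n = 2). Gja1 at 5.40 ± 1.595, Cldn3 at 3.87 ± 0.780, Ocln at 3.31 ± 0.231 and Cldn5 at 0.300 ± 0.0101 followed. In the control Cldn11 at 28.7 ± 2.44 and Tjp1 at 26.7 ± 1.597 led, followed by Cdh2 at 15.5 ± 0.928, Cadm1 at 7.05 ± 0.322 and F11r at 5.36 ± 0.125. Cldn3 at 1.999 ± 0.509, Gja1 at 1.19 ± 0.225, Ocln at 0.940 ± 0.244 and Cldn5 at 0.263 ± 0.139 came last. Neighbours whose means differed by less than the larger SD were F11r with Cadm1, Cadm1 with Cdh2, Gja1 with Cldn3 and Cldn3 with Ocln in the knockout, and Cldn11 with Tjp1 in the control. Cdh2 stood 3rd in the control order and 5th in the knockout order, at nearly the same level.

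The libraries of each group were also ordered alike over the members. All 7 members that rose were higher in knockout replicate 2 than in knockout replicate 1, and all 7 were higher in control replicate 2 than in control replicate 1. The share of all tested genes in this order was not counted, so the order cannot be called particular to the members. The mean log2(RPKM + 0.1) of 27 other Sertoli genes followed the same order, at 2.90 and 3.22 in knockout replicates 1 and 2 and at 1.29 and 1.596 in control replicates 1 and 2. Cldn5 and Cdh2 were lower in replicate 2 of each group.

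Genes of other cell types moved with the groups. Of 30 Sertoli markers listed, 28 were tested, of which 27 rose and Fgf8 was not called, with a median RPKM ratio of 3.26. Their summed RPKM was 573 and 703 in the knockout libraries, against 199 and 236 in the control libraries. The most abundant were Aard, at 152 ± 19.5 RPKM in the knockout and 53.0 ± 4.62 RPKM in the control, and Clu, the secreted chaperone clusterin, at 95.3 ± 13.5 and 28.9 ± 4.25 RPKM (knockout and control, SD, n = 2 each). Of 18 tested genes of pachytene spermatocytes 16 fell and 1 rose, and their summed RPKM was 982 and 737 in the knockout libraries, against 2459 and 2426 in the control libraries. The heat shock protein gene Hspa2 and the centrin gene Cetn1, the most abundant of them, were 1.80-fold and 5.68-fold lower in the knockout. In such suspensions fewer cells of a type and less RNA per cell cannot be told apart.

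Somatic cells outside the tubule showed higher values too. All 5 tested genes of peritubular myoid cells rose, with Tagln at 2.96 ± 0.176 RPKM in the knockout and 1.96 ± 0.170 RPKM in the control, and Acta2 2.50-fold higher. All 8 stromal genes rose, among them Col1a1 5.82-fold and Tcf21 2.42-fold. Of 7 Leydig cell genes tested 5 rose and 2 were not called, with Insl3 3.13-fold higher and Star not called (limma adjusted p = 0.053). Of 11 macrophage genes 8 rose, with the complement genes C1qa and C1qc 2.48-fold and 3.04-fold higher. Of 8 endothelial genes tested 6 rose and 1 fell, and 3 of those that rose were above the filter in the knockout alone. The most abundant of these were Ramp2, 2.93-fold higher, and Sox18, at 1.89 ± 0.390 RPKM in the knockout and 1.145 ± 0.337 RPKM in the control and not called. Of 13 spermatogonial genes 9 rose and 2 fell, and those that fell, Id4 and Egr4, were the most abundant of them over the 4 libraries, 1.75-fold and 2.001-fold lower. Of 16 dissociation and stress genes tested 15 rose, Jund 4.71-fold, while Hsp90aa1 was not called. No gene of these marker lists was at 0 in all 4 libraries, and 1 Sertoli, 1 Leydig, 1 macrophage, 2 spermatogonial and 1 dissociation gene that rose were above the filter in the knockout alone. The part that a shift between cell types had in the junction gene changes was not tested.

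Set beside the Sertoli markers, the members did not keep one ratio. In each library the mean log2(RPKM + 0.1) of the 27 Sertoli genes, without any member, was subtracted from that of the member. Cldn11 then had 0.94 and 1.08 in the knockout libraries, against 0.56 and 0.42 in the control libraries, so it exceeded the Sertoli change by 0.52. Gja1 exceeded it by 0.43, with -1.12 and -0.84 in the knockout libraries against -1.43 and -1.39 in the control libraries. For both genes the groups did not overlap.

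F11r followed the Sertoli genes, with a difference of 0.03 and overlapping groups. Tjp1, Ocln, Cadm1 and Cldn3 lay below the Sertoli change, with differences of -0.40, -0.58, -0.65 and -0.69, and their groups did not overlap. Cdh2 had -3.38 and -3.90 in the knockout libraries, against -1.83 and -2.24 in the control libraries, a difference of -1.61. Cldn5 had a difference of -1.43. The share of all tested genes without overlap on this scale was not counted, so non-overlap here does not set the members apart. An exact two-sided permutation test of 2 libraries against 2 cannot go below p = 0.333, which was the value for each member other than F11r (p = 1.0). The pseudocount weighs on the low values of Ocln, and with none the difference of Ocln was 0.04.

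**Figure D3:**
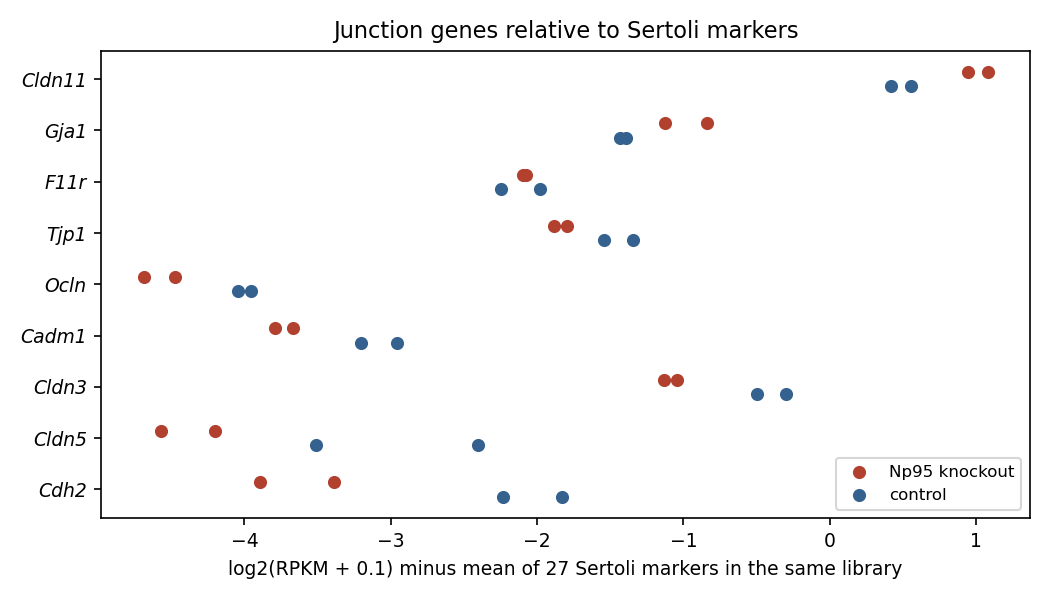
Log2(RPKM + 0.1) of each junction gene minus the mean of 27 Sertoli markers in the same library, for 2 Np95 knockout libraries (red, upper of each pair of rows) and 2 control libraries (blue, lower). Cldn11 and Gja1 lay further right in the knockout, F11r overlapped, and the remaining 6 genes lay further left.

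Promoter sequences could be matched for 7 of the 9 members, from RefSeq on GRCm38.p6, a later build than the mm9 of the authors' processing. Each window runs from 250 bases before to 50 bases after an annotated start. The sequences below are shown because Np95 acts at CpG sites, which are in capitals. These 3 genes all rose, and their windows span the range of CpG counts among the windows used. No methylation was measured in these libraries. The Cldn11 window is chr3:31149670-31149969 on the plus strand, that of Gja1 is chr10:56377050-56377349 on the plus strand, and that of Tjp1 is chr7:65371195-65371494 on the minus strand.
Cldn11: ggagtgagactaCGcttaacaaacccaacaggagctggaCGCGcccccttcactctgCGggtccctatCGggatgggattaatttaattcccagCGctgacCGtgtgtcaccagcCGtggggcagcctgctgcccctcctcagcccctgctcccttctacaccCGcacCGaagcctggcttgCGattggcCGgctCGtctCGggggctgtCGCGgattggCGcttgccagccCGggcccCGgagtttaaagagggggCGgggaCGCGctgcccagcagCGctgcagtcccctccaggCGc
Gja1: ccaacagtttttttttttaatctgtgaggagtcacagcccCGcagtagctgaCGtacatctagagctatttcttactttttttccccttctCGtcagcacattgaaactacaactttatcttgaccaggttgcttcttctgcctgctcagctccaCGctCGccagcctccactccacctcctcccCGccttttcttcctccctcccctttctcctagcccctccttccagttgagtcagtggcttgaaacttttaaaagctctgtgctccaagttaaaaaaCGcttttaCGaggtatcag
Tjp1: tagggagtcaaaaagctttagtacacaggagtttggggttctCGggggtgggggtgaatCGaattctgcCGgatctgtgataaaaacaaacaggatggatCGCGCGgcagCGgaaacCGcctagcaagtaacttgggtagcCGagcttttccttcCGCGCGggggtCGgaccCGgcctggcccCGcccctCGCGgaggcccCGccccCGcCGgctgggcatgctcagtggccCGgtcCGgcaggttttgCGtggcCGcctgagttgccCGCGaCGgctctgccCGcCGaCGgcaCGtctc

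The Cldn11 window holds 24 CpG sites, the Gja1 window 8 and the Tjp1 window 31. Cldn3 has 9, Cldn5 12 and F11r 19, and the 2 windows of Ocln, which overlap each other, have 17 and 24. Over all 32851 windows of the table the quartiles were 3, 7 and 20 sites. Each member window used lay above the median, with none of Cdh2 or Cadm1 among them. The windows of genes that rose held from 8 to 31 CpG sites, and that of Cldn5, which was not called, held 12. A relation between CpG sites and the calls was not tested, and Cdh2, also not called, has no window here. The motif GGGCGG, read on both strands, was present in the windows used for every member except Gja1, and in 35.7% of all windows. AGATAA was present in Gja1 alone, against 11.2% of all windows. TGACG was present in Cldn3 and in Gja1, against 20.8%, and ACAAT in none of the member windows used, against 31.0%. These are counts of letters in the windows and say nothing of factor binding.

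Other junction genes gave a wider view, from lists chosen with earlier results of these data known. Of 134 such genes listed, 79 passed the filter, 64 of them rose, 6 fell and 9 were not called, beside 47.0% higher and 23.2% lower among all tested genes. For 16 of the 79 only the knockout values were above the filter. Among the 6 that fell, Cldn14 and Cldn34a were above the filter in the control alone. Their median log2 fold change was 1.01, or 0.63 beyond the median of all tested genes. With libraries centred on an equal median 44 rose and 10 fell, and with quantile normalization 42 rose and 10 fell.

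Of the other claudins 7 were tested, of which 3 rose, 2 fell and 2 were not called, and 2 of the 3 that rose were above the filter in the knockout alone. Cldn4, a claudin of many epithelia, had 1.42 and 1.78 RPKM in the knockout libraries, against 0.0946 and 0.0857 RPKM in the control libraries, 17.8-fold higher, with only its knockout values above the filter. Cldn12 was 1.91-fold higher. Cldn14 was 2.90-fold lower at very low values, and Cldn34a was listed at 0 in both knockout libraries, against 0.268 and 0.131 RPKM in the control libraries. For Cldn14 and Cldn34a only the control values were above the filter, so their groups had to differ.

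In the remaining tight junction list 19 of 20 tested genes rose and 1 fell, and 7 of the 19 were above the filter in the knockout alone. Cgn encodes cingulin, a cytoplasmic protein of the junction, and had 5.39 and 7.26 RPKM in the knockout libraries, against 1.10 and 1.17 RPKM in the control libraries, 5.57-fold higher. The polarity genes Pard6b and Prkci, whose products act in one complex at epithelial junctions, were 5.25-fold and 3.77-fold higher. Pard6a, a paralogue of Pard6b, went the other way, with 7.93 and 6.01 RPKM in the knockout libraries, against 16.3 and 19.1 RPKM in the control libraries.

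Of 12 adherens junction genes tested 11 rose and 1 fell. Ctnnb1, the gene of beta-catenin, which binds cadherin tails, had 18.01 ± 1.75 RPKM in the knockout and 7.91 ± 0.159 RPKM in the control (SD, n = 2 each), 2.28-fold higher, while its partner gene Cdh2 was not called. The actin-linked genes Zyx and Actn4, of zyxin and an alpha-actinin, were 5.51-fold and 2.98-fold higher. Nectin3, known in mice from the spermatid side of the contact with Sertoli cells, had 1.62 and 1.21 RPKM in the knockout libraries, against 3.28 and 3.64 RPKM in the control libraries, 2.44-fold lower (limma adjusted p = 0.0041). Nectin2, known from the Sertoli side and named here after its values were seen, had 2.48 and 3.21 RPKM in the knockout libraries, against 0.897 and 0.929 RPKM in the control libraries, 3.12-fold higher (limma adjusted p = 0.0031). The member Cadm1, known from germ cells, rose as well, so this pair does not show a split by side of the contact.

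Among 12 tested connexin and pannexin genes other than Gja1, 8 were higher, 2 were lower and 2 had no call. Of the 8 that were higher, 5 were above the filter in the knockout alone and so had to differ. The connexin gene Gjd3 fell by 2.02 on the log2 scale, with 1.13 and 1.31 RPKM in the knockout libraries, against 5.39 and 5.08 RPKM in the control libraries. Panx1, the gene of a pannexin channel protein, was 3.61-fold higher and is 1 of these 5. Only 3 of 12 desmosome genes passed the filter, and of these Pkp2, a plakophilin, rose 1.88-fold. Dsp and Pkp4 were not called, with log2 fold changes of -0.48 and -0.11, and the median of the desmosome list was -0.11. Of 25 tested genes of the ectoplasmic specialization and its actin regulation 22 rose and 3 were not called, and 2 of the 22 were above the filter in the knockout alone. Itgb1, the integrin beta chain of these sites, was 4.08-fold, the kinase gene Rock1 3.44-fold and the intermediate filament gene Vim 3.72-fold higher.

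**Figure D4:**
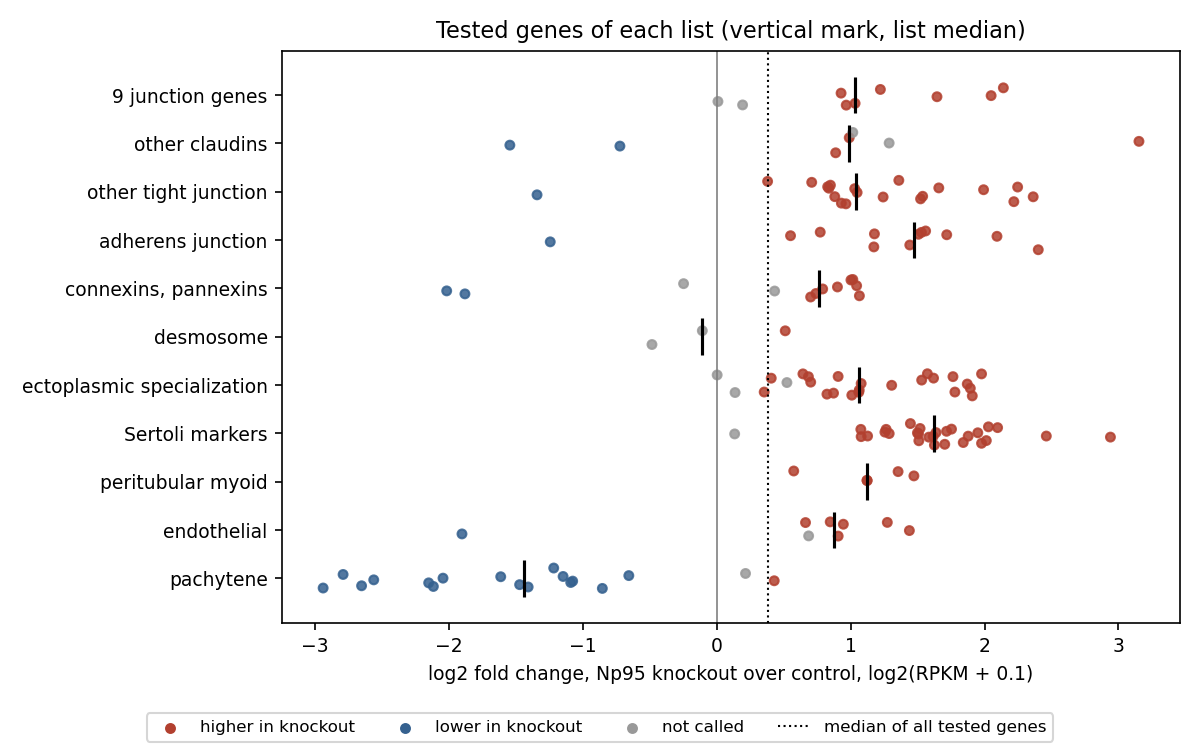
Log2 fold change (Np95 knockout over control, log2(RPKM + 0.1) scale) of each tested gene in the junction lists and in 4 cell type lists, 1 point per gene, coloured by call, with a vertical mark at the list median. The junction lists other than the desmosome list lay mostly to the right of the dotted median of all tested genes, 0.38, as did the Sertoli markers. The pachytene genes lay mostly to the left.

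The genes whose profile over the 4 libraries was nearest to the mean profile of the 9 members, by Euclidean distance of centred log2(RPKM + 0.1) values, were Adprhl2, Fbn1, 5031426D15Rik, Specc1 and Hexim1. Adprhl2 had 3.47 and 4.04 RPKM in the knockout libraries, against 1.62 and 1.70 RPKM in the control libraries, and Hexim1 had 18.8 and 22.3 RPKM against 9.24 and 9.61 RPKM in the same order of groups. Fbn1 and 5031426D15Rik were above the filter in the knockout alone. Their RPKM was 6.24-fold and 6.13-fold higher in the knockout, against 2.27-fold for Adprhl2, and the added 0.1 RPKM shrinks log2 changes at such low values. The 5 distances ran from 0.0092 to 0.026, over 4 libraries only, where many genes follow the same pattern.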

How the data were processed

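Poly(A) RNA of 2 Np95 knockout and 2 control libraries was read as pairs of 50 bp per the labels' protocols; the kit named there is not a strand-marking one. The authors deposited RPKM values, 1 column per library, per the file headers. Bowtie2 and mm9 are listed in the submitters' processing notes, while the read counter is not stated in them. Multiplied by RefSeq gene span, 44.2% to 47.0% of low values were whole multiples of 1 step, to within 0.05, against 9.90% to 10.6% by exon length, where 10.0% falls there by chance. If 1 step is 1 read or pair, depth was 4815000 to 12800000, which limits precision for short genes. In control replicate 1 and knockout replicate 2 even multiples of a smaller step prevailed, and the larger step was taken. Whole reads were not recovered, so no count test was run.

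Of 24444 rows, 27 with a date for a symbol were left out, as were 29 repeats of a symbol (the highest was kept). Genes at 0.1 RPKM or more in 2 libraries were tested on log2(RPKM + 0.1) with limma 3.58.1 (R 4.3.3, mean-variance trend, two-sided, Benjamini-Hochberg over 14887 genes). The low filter and pseudocount suit span-scaled values, and 1 RPKM with a pseudocount of 1 was an alternative. Groups come from the sample titles. The fit was run on simulated data with few changed genes, evenly up and down, and a common spread. These data differ in each of these, so that run does not bear on the calls. The members and lists were chosen with earlier results of these data known. Named were the members, the 3 called genes of smallest p per junction list and called genes against its majority, the 2 most abundant genes per marker list, and the 5 nearest profiles. One gene that this rule names is not reported here. Alternatives were pseudocounts, filters, scalings, fits with no trend or with a replicate block, summed repeats, and omission of each library. Protein sequences were not used here.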

Additional observations from a re-analysis of the deposited data

How the results depend on the processing

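Cldn11, F11r, Tjp1 and Gja1 kept their direction and their call under all 15 alternatives, and Ocln under the 13 that tested it, with log2 fold changes from 1.69 to 2.55, 0.91 to 2.02, 0.77 to 1.61, 1.42 to 2.44 and 0.22 to 1.27 (in that order). With each library left out in turn these ran from 1.92 to 2.37, 1.497 to 1.79, 1.11 to 1.33, 1.75 to 2.35 and 0.92 to 1.14. Ocln passed the main filter through the knockout libraries alone, so its groups had to differ and its kept call adds little. Without the filter its log2 fold change was 1.03 (limma adjusted p = 0.027). Cldn3 was no longer called without the filter (0.93), with an equal median (0.48) and with quantile normalization (0.68), and ran from 0.68 to 1.18 with a library left out. Cadm1 was no longer called with quantile normalization (0.38). Cldn5 turned to -0.25 with an equal median and to -0.38 with quantile normalization, with -0.21 (without control replicate 2) to 0.59 when a library was left out. Cdh2 turned to -0.44 with an equal median and to -0.55 with quantile normalization, where it was the 1 member called lower, and to -0.04 without control replicate 2 and -0.090 without knockout replicate 1 (up to 0.11). From 5 to 7 members rose under each alternative, 5 of the 5 tested at 1 RPKM. The cause of these changes was not tested, beyond the scaling itself.

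Of the wider junction genes 35 rose and 3 fell at 1 RPKM, with either pseudocount, where fewer genes are tested. With quantile normalization 42 rose and 10 fell, and with an equal median 10 fell. With a library left out 51 to 62 rose and 5 to 6 fell. Over all tested genes the call split was 6992 higher and 3460 lower (66.9% higher). It was 9256 and 2090 with an equal RPKM sum (81.6%), 4259 and 5554 with an equal median (43.4%), 4511 and 4421 with quantile normalization (50.5%), 3932 and 2759 at 1 RPKM, 3943 and 2776 at 1 RPKM with a pseudocount of 1, 4941 to 6578 and 2154 to 3524 with a library left out. The all-gene median was 0.74 (log2) with an equal RPKM sum, -0.07 with an equal median and 0.06 with quantile normalization.

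The deviations of same-numbered libraries had a correlation of 0.03 across genes, so the numbers were not taken as pairs. With the replicate block 7 members rose and 0 fell, and over all genes 6771 were higher and 3340 lower. Relative to the Sertoli markers F11r turned to -0.19 and -0.34 with pseudocounts of 0.5 and 1, to -0.065 at 1 RPKM and to -0.11 without control replicate 2 (up to 0.159 with another library left out). Ocln turned to 0.041 with no pseudocount, an alternative chosen after seeing the data. Depth limits Cldn5, with about 1.99 to 4.83 reads or pairs per library, or about 2 times as many in knockout replicate 2 and control replicate 1. With 2 libraries a group and 1 left out, the lone library is assumed to vary like the other group.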
